A study of Mus musculus with 4 samples.

Results

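The glycolysis and hypoxia-response genes described here are 40 gene names chosen by function: glucose and lactate transporters, glycolytic enzymes, regulators of glycolytic and pyruvate flux, the oxygen-sensing control of HIF-1 alpha, and genes known to respond to hypoxia. Of these, 39 were found in both deposited gene tables, each as 1 row per table, and all 39 had a mean of at least 1 FPKM (fragments scaled to transcript length and to the mapped fragments of the library) over the 4 libraries. The name Pkm had no row, and the pyruvate kinase gene stood under its older symbol Pkm2, which is the value of the whole gene and not of the splice form of that name. The tables held 22144 usable gene symbols, and 10603 of them reached the same mean and were tested. RNA-seq libraries came from C57BL/6 mouse induced regulatory T (iTreg) cells, 2 libraries labelled WT and 2 labelled MSC KO, a knockout of the transcription factor musculin, of the basic helix-loop-helix family. Sorted naive T cells of either genotype had received TGF-beta (2 ng/ml) and plate-coated anti-CD3/CD28 (1 µg/ml) during a culture of 3 days, so activation and TGF-beta were shared by all 4 libraries and the labels name no hypoxic culture. The first table paired WT 1 with MSC KO 1, and the second paired WT 2 with MSC KO 2.

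Glycolysis converts glucose to pyruvate in the cytosol, and activated T cells are known for a high rate of it, with much of the pyruvate released as lactate. HIF-1 alpha is the oxygen-regulated subunit of a transcription factor that is continuously made; at normal oxygen, prolyl hydroxylases mark the protein and the VHL ubiquitin ligase has it degraded. When it accumulates it pairs with ARNT, binds short sites with the core ACGTG or GCGTG, and activates glucose transporters, glycolytic enzymes and genes of adaptation to low oxygen. In T cells HIF-1 alpha is also known to be induced by antigen receptor signals and to favour Th17 over regulatory T cell programmes. Transcript levels do not report the amount of HIF-1 alpha protein or the flux through the pathway.

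Promoter sequence was examined for the 2 cores of that site, because many of these genes are known HIF-1 targets. A window from 250 bases before to 50 bases after the transcription start, on the strand of the gene, was held in the RefSeq table (GRCm38.p6) for 36 of the 39 genes, as 53 windows; Slc2a3, Bnip3l and Ndrg1 had no entry. The letters ACGTG or GCGTG, on either strand, occurred in 42 of the 53 windows (79.2%), against 43.8% of all 32851 windows in the table and 63.9% of the 9560 windows of tested genes. ACGTG alone was in 29 of them (54.7%), against 19.6% and 26.6%. At least 1 window with either core was found for 33 of the 36 genes (91.7%), against 70.0% of the 7509 tested genes with an entry. CACGTG reads as ACGTG on both strands and was counted on each. CACGCGTG in Ankrd37 likewise holds GCGTG on each strand. Of the genes with an entry, the 4 whose levels stood furthest apart between the labels in both tables are shown, with the cores in capitals: Hif1a (chr12:73907617-73907916, plus strand), Hk2 (chr6:82774405-82774704, minus strand), P4ha2 (chr11:54100674-54100973, plus strand) and Ankrd37 (chr8:45999801-46000100, minus strand).
Hif1a: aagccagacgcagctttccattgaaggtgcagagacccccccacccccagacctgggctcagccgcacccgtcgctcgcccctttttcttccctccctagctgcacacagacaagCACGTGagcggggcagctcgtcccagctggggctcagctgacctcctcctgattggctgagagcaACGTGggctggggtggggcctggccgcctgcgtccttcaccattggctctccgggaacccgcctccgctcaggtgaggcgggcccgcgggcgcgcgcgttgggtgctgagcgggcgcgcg
Hk2: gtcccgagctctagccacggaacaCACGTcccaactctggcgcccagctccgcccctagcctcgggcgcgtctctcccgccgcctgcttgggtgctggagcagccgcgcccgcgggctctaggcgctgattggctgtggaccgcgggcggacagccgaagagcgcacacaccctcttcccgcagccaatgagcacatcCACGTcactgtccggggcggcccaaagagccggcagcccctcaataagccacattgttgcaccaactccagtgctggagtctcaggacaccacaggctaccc
P4ha2: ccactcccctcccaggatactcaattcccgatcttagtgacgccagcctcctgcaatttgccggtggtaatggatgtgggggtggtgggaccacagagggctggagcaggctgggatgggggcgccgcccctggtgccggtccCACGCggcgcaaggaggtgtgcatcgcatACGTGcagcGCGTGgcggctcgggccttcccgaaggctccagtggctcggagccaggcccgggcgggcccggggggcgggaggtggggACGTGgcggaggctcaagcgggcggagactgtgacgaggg
Ankrd37: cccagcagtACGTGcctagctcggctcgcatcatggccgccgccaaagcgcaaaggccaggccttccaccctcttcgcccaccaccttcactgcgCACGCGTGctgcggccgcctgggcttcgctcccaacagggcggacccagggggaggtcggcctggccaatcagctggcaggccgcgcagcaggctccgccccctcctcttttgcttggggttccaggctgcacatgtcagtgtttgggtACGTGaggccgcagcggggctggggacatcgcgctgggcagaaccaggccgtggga
Hk2 held ACGTG on the minus strand of the window at -226 and -52 from the start, while the 3 other genes shown had 3 or 4 matches each. All 4 windows held the letters, whether the gene was higher or lower in the MSC KO-labelled libraries. A match is a string of letters and does not show binding.

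The library labels were checked on musculin itself. Msc stood at 0.0243 and 0.0178 FPKM in WT 1 and WT 2 and at 0.331 and 0.939 FPKM in MSC KO 1 and MSC KO 2, about 1 fragment in each WT library against 16.7 and 49.7, so its level went against the labels; which part of the gene was deleted is not stated in the labels. WT and MSC KO therefore name the submitters' labels throughout. None of the 39 genes lies on chromosome 1, which holds Msc. The 9 T cell markers found were above 1 FPKM in every library, summing to 1914 to 2047 FPKM. Foxp3, the defining transcription factor of regulatory T cells, was at 62.8 and 66.0 FPKM in WT against 2.97 and 7.05 FPKM in MSC KO 1 and MSC KO 2, and its part in the values that follow was not tested. Marker sums of B cells (5.07 to 7.38 FPKM), myeloid cells (1.76 to 4.601, with S100a8 and S100a9 at 0), mast cells (2.47 to 14.9, all from Kit, 5 of 6 markers at 0), CD8 and gamma delta T cells (9.16 to 19.8) and erythroid cells (0.0324 to 0.056) were low in all 4 libraries. Only 3 of 6 CD8 and gamma delta T cell markers and 2 of 6 erythroid markers were found. Cd8b1 was at 19.1 FPKM in MSC KO 2, against 9.75 in WT 1, 9.75 in WT 2 and 8.56 in MSC KO 1. Estimated depth, from the value of 1 fragment in the table, ranged from 27300000 to 37100000 fragments. In bulk RNA, fewer cells expressing a gene and less RNA per cell cannot be told apart.

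Enzyme transcripts were among the most abundant in these cells. Of the 39 genes, 5 were within the 100 highest symbols in each library, and 9 exceeded 600 FPKM in each. Ldha, encoding the lactate dehydrogenase subunit that reduces pyruvate to lactate, was the highest of the enzymes, at 2257 and 2337 FPKM in WT 1 and WT 2, and 2359.8 and 2059.8 FPKM in the libraries labelled MSC KO 1 and MSC KO 2. Pgk1 (phosphoglycerate kinase), Aldoa (aldolase), Pkm2 and Gapdh followed between 1602 and 1959.9 FPKM. The lowest was Pfkfb4, one of the enzymes that make the phosphofructokinase activator fructose 2,6-bisphosphate, at 2.51 and 2.28 FPKM in WT 1 and WT 2, and 2.26 and 2.26 FPKM in the libraries labelled MSC KO 1 and MSC KO 2, about 227 fragments at its lowest and a counting error of 6.63%; for every other gene of the set the counting error was 4.26% or less. Together the 39 genes held 1.83% and 1.86% of all symbol FPKM in WT 1 and WT 2 and 1.95% and 1.75% in MSC KO 1 and MSC KO 2. That share was highest in MSC KO 1 and lowest in MSC KO 2, with the WT pair between them.

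**Figure D1:**
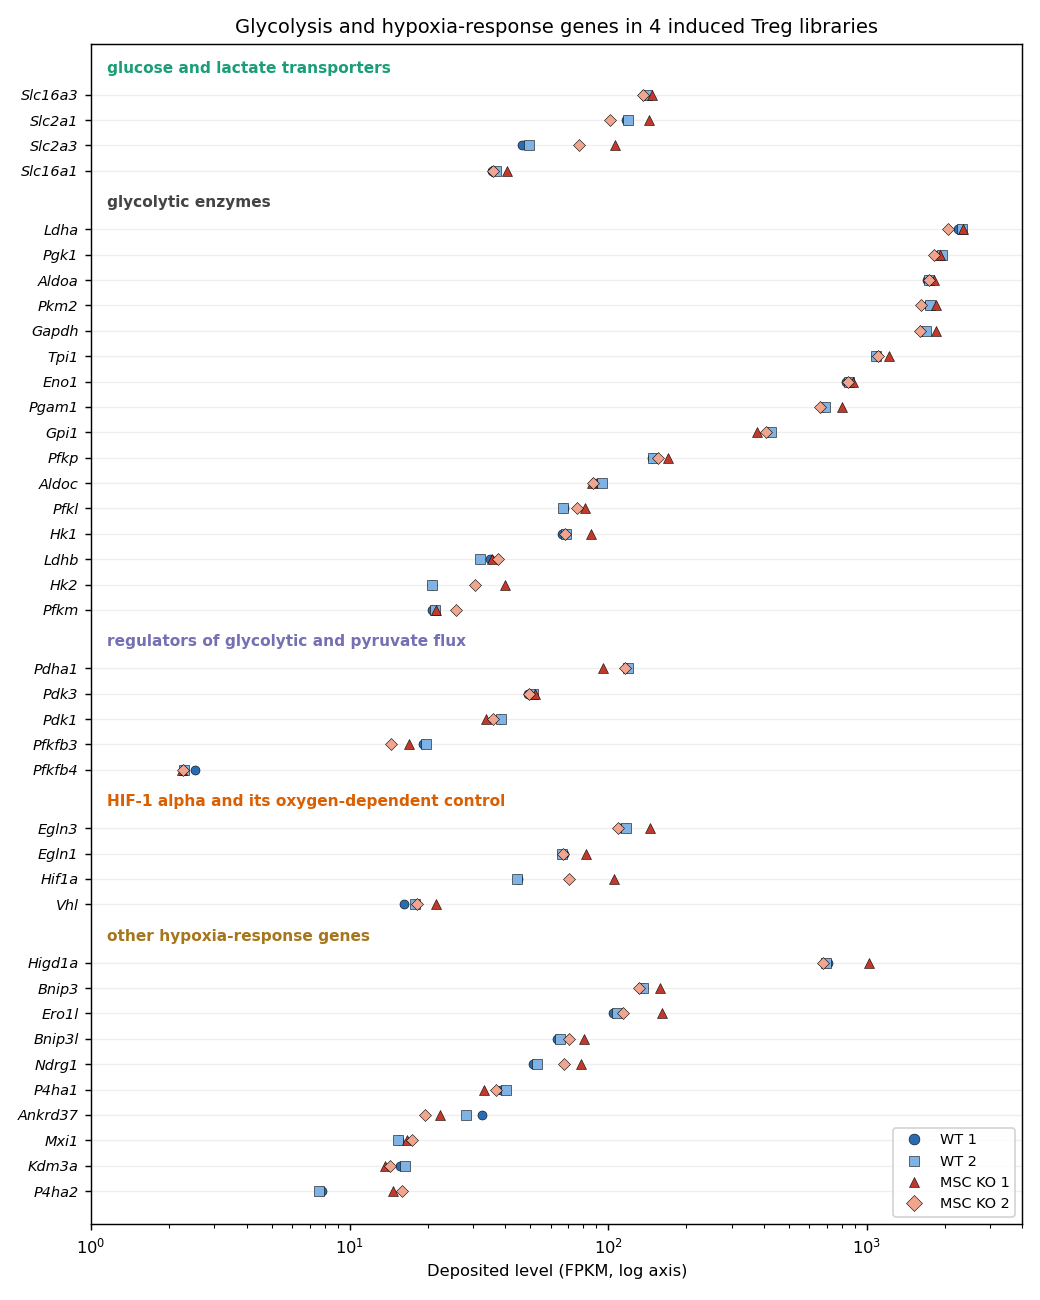
Level of each of the 39 genes in the 4 libraries, in FPKM on a log axis, grouped by role; each point is 1 library. Hif1a, Slc2a3, Hk2 and P4ha2 lie to the right in both MSC KO-labelled libraries (105 and 70.2 against 44.6 and 44.3 FPKM for Hif1a). Among the most abundant enzymes, Ldha, Pgk1, Pkm2 and Gapdh overlap between labels. For Aldoa and Tpi1 both MSC KO-labelled libraries lie above both WT libraries, as for 26.6% of all genes. After quantile normalization Aldoa and Tpi1 were lower in both tables.

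The first comparison was between the labels. None of the 39 genes passed limma at an adjusted p under 0.05, against 1 of all 10603 genes tested (0.00943%). At an unadjusted p under 0.05 the count was 6 of 39 (15.4%), against 20.4% of all genes, so the set held no more of them than the table as a whole. Higher by that measure in the MSC KO-labelled libraries were Hif1a, Slc2a3, P4ha2, Hk2 and Ndrg1 (5 genes, against 9.2% of all genes), and lower was Ankrd37 (1 gene, against 11.2%). The 3 genes at least 1.5-fold higher in both tables were Hif1a, Slc2a3 and P4ha2 (7.69% of the 39), against 3.26% of all genes; none was at least 1.5-fold lower in both, against 2.45%. Hk2 lay just outside, at 1.47-fold in the second table. In the authors' deposited tables, none of the 39 genes was called higher (0.483% and 0.359% of genes in the first and second table) or lower (0.151% and 0.199%). The authors' deposited unadjusted p was under 0.05 for 3 of the 39 genes in the first table (lowest q 0.121), against 5.32% of all genes, and for 1 in the second (q 0.509), against 4.77%. The limma fit had 1 residual degree of freedom. Without the table as a block P4ha2 passed (limma adjusted p 0.0416), 1 of 39 against 1.44% of all genes. A fit without 1 MSC KO-labelled library took its spread from the WT pair alone. Over the 39 genes that pair had an SD of 0.058, against 0.217 for the MSC KO-labelled pair. The counts of such fits carry none of the MSC KO-labelled spread, so no conclusion about the set is drawn from them. With MSC KO 1 left out 8 of 39 genes passed (20.5%), about the share of all genes (21.7%). With MSC KO 2 left out 18 passed (46.2%), against 25.2% of all genes, and Slc2a1 passed in opposite directions in those 2 fits.

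Directions differed between the tables. In the first table, 30 of the 39 genes were higher in MSC KO 1 than in WT 1, against 49.4% of all genes (27 with libraries scaled to 1 common sum, against 42.3%, and 24 after quantile normalization, against 44.9%). In the second table, 16 were higher in MSC KO 2 than in WT 2, against 44.1% (12 rescaled, against 40.4%, and 17 by quantile, against 44.2%). The same 16 were higher in both tables, 41.0% of the genes against 31.2% of all. After rescaling the count was 10 (25.6%), no higher than the 26.5% of all genes, and by quantile it was 15 (38.5%, against 29.8%). Lower in both were 9 genes, 23.1% against 37.5% (10 rescaled, against 43.6%, and 12 by quantile, against 40.1%). Another 14 were higher in the first table and lower in the second table, 35.9% against 18.1% of all genes (17 rescaled, against 15.7%, and 9 by quantile, against 14.9%). None was the reverse, against 12.7% (2 in each of those scalings). Some lists of neighbouring metabolism showed a like share that was higher in the first table and lower in the second. It was 42.9% of 14 pentose phosphate and serine synthesis genes, 37.1% of 35 respiratory chain subunits and 36.4% of 22 citric acid cycle genes. By quantile these shares were 21.4%, 11.4% and 13.6%. Other related lists lay below the 18.1% of all genes: 2 of 20 other glycolysis and pyruvate genes and 4 of 28 other hypoxia-induced genes. In between were 3 of 10 other HIF pathway components and 6 of 21 MYC and mTORC1 pathway genes. On the log2(FPKM + 1) scale the median difference of the set was 0.08, 0.16 within the first table and -0.04 within the second; over all genes it was -0.02. By role the medians were 0.05 for the transporters, 0.07 for the glycolytic enzymes (-0.02 by quantile) and -0.13 for the regulators of flux. They were 0.18 both for HIF-1 alpha with its control genes and for the other hypoxia-response genes. In that order the medians were 0.23, 0.10, -0.17, 0.38 and 0.27 within the first table. Within the second they were -0.04, -0.01, -0.06, 0.02 and 0.01. With libraries scaled to 1 common sum the last 2 of these turned to -0.007 and -0.017.

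**Figure D2:**
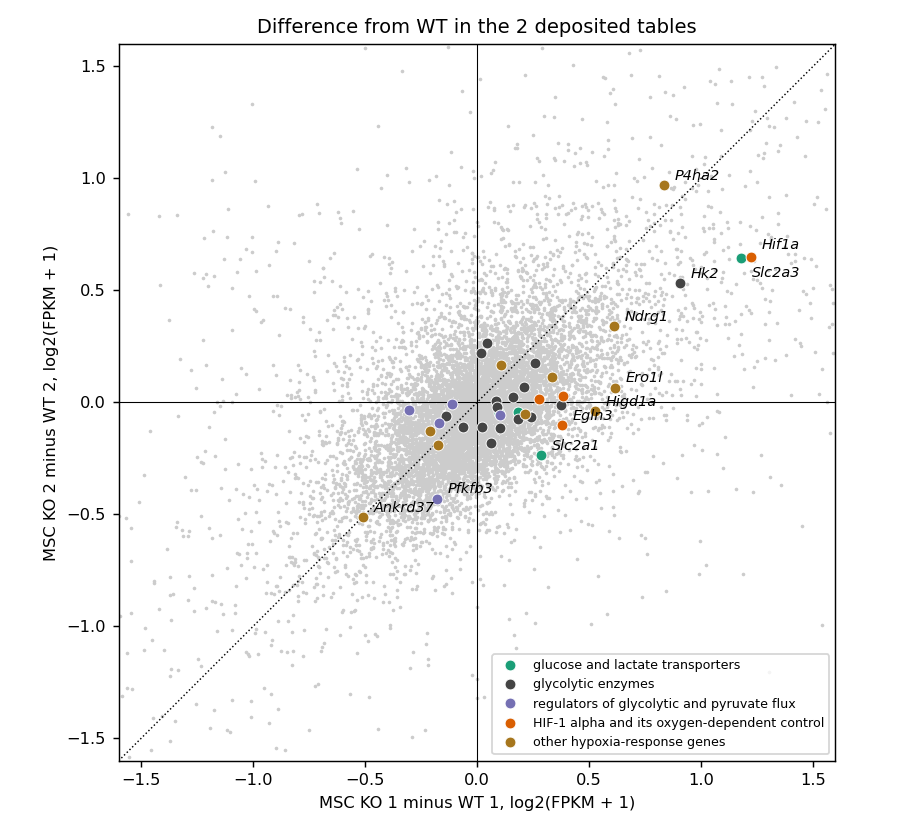
Difference between the MSC KO-labelled and the WT library of each table on the log2(FPKM + 1) scale, the first table on the horizontal and the second on the vertical axis; grey points are all tested genes, except 347 outside the axes, coloured points the 39 genes by role, and the dotted line marks equal differences. P4ha2 lies above the line at the upper right and Ankrd37 on it at the lower left, while Hif1a, Slc2a3 and Hk2 lie below it, larger in the first table.

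Among the transporters, the glucose transporter gene Slc2a3 (GLUT3, chr6:122677826-122692763 in mm9) was at 46.4 and 49.2 FPKM in WT 1 and WT 2, and 106 and 77.3 FPKM in the libraries labelled MSC KO 1 and MSC KO 2. Both MSC KO-labelled libraries lay above both WT libraries. That order was common: it was found for 26.6% of all genes, and the reverse order for 32.5%, so it does not set a gene apart. The folds were 2.29 and 1.57 in the 2 tables, a difference of 0.91 ± 0.17 (log2, SE) and a limma adjusted p of 0.153. Slc2a1 (GLUT1), the other glucose transporter gene of the set, was at 118 and 119.6 FPKM in WT 1 and WT 2. It was at 144 and 101 FPKM in the libraries labelled MSC KO 1 and MSC KO 2. One MSC KO-labelled library lay above and the other below both WT libraries, with folds of 1.22 and 0.848 (limma adjusted p 0.948); its mean difference was 0.025, and -0.016 with libraries scaled to 1 common sum. Slc16a1 and Slc16a3, which encode monocarboxylate transporters that move lactate across the membrane, ranged from 35.5 to 40.4 and from 136 to 147 FPKM, with overlapping labels.

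Of the 16 glycolytic enzyme genes, Hk2 stood apart. Hk2, which encodes the inducible hexokinase for the first step of the pathway (chr6:82675020-82724448), was at 20.8 and 20.8 FPKM in WT 1 and WT 2, and 39.9 and 30.6 FPKM in the libraries labelled MSC KO 1 and MSC KO 2. The WT libraries were nearly equal and both MSC KO-labelled libraries lay above them, by 1.92-fold and 1.47-fold. The difference was 0.72 ± 0.13 with a limma adjusted p of 0.153. Hk1, the constitutive hexokinase, was at 66.1 and 68.6 FPKM in WT 1 and WT 2, and 85.9 and 68.2 FPKM in the libraries labelled MSC KO 1 and MSC KO 2, so that MSC KO 1 alone lay above the others. Pfkl, the liver-type phosphofructokinase subunit, stood at 67.7 and 67.03 FPKM in WT against 81.1 and 75.9 FPKM in MSC KO 1 and MSC KO 2. Pfkm, the muscle type, stood at 20.9 and 21.3 FPKM in WT against 21.6 and 25.8 FPKM in MSC KO 1 and MSC KO 2. Pfkp, the platelet type, stood at 148 and 149 FPKM in WT against 171 and 156 FPKM in MSC KO 1 and MSC KO 2. For all 3 subunits the MSC KO-labelled libraries lay above both WT libraries, as for 26.6% of all genes. Of the 16 genes, 7 (Eno1, Gapdh, Hk1, Ldha, Pgam1, Pgk1 and Pkm2) were higher in the first table and lower in the second table. That pattern was found for 18.1% of all genes. Aldoc and Gpi1 (2 of 16) were lower in both tables, against 37.5% of all genes. After quantile normalization 4 of the 16 were higher in the first table and lower in the second, against 14.9% of all genes. By that scaling 5 of the 16 were lower in both, against 40.1%. Pgam1 (phosphoglycerate mutase) had 677 and 691 FPKM in WT against 801 and 660.1 FPKM in MSC KO 1 and MSC KO 2, which put the WT pair between the others. Gapdh, of the oxidative step of glycolysis, had 1634 and 1687 FPKM in WT against 1853 and 1602 FPKM in MSC KO 1 and MSC KO 2. For these enzymes the median difference of the 16 genes was 0.07, against -0.02 over all genes, and turned to -0.02 after quantile normalization, so the group had no direction that held across scalings. None of the 16 was called by limma. Only Hk2 had a limma unadjusted p under 0.05 (6.25% of the 16, against 20.4% of all genes).

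The regulators of flux were the role group with most genes lower in both tables: Pfkfb3, Pfkfb4, Pdk1 and Pdha1. These were 4 of 5, against 37.5% of all genes (3 of 5 after quantile normalization, against 40.1%). In the second table the log2 difference was -0.009 for Pfkfb4 and -0.035 for Pdha1, and -0.43 for Pfkfb3 and -0.094 for Pdk1. None of the 5 had a limma unadjusted p under 0.05, against 20.4% of all genes. Pfkfb3, the main kinase that makes fructose 2,6-bisphosphate in proliferating cells, was at 19.3 and 19.8 FPKM in WT 1 and WT 2, and 16.9 and 14.4 FPKM in the libraries labelled MSC KO 1 and MSC KO 2. Both MSC KO-labelled libraries lay below both WT libraries, at 0.878 and 0.729 of WT, and the difference was -0.30 ± 0.11 (limma adjusted p 0.267). Pdk1, a kinase that inactivates pyruvate dehydrogenase, stood at 38.1 and 38.4 FPKM in WT against 33.7 and 35.9 FPKM in MSC KO 1 and MSC KO 2, with no overlap. Pdha1, the E1 alpha subunit of that complex, had 117 and 119 FPKM in WT against 95.05 and 116 FPKM in MSC KO 1 and MSC KO 2. Pdk3 was within 48.7 to 52.3 FPKM.

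HIF-1 alpha mRNA showed the largest mean difference of the 39 genes on the log2(FPKM + 1) scale of the deposited values. Hif1a (chr12:75008853-75048517) was at 44.6 and 44.3 FPKM in WT 1 and WT 2, and 105 and 70.2 FPKM in the libraries labelled MSC KO 1 and MSC KO 2. The WT pair differed by 0.01 on the log2 scale and both MSC KO-labelled libraries lay above it, MSC KO 1 by 2.36-fold and MSC KO 2 by 1.58-fold. The mean difference was 0.94 ± 0.18, with a limma adjusted p of 0.154, and the authors' deposited table gave p = 0.0014 and q = 0.121 in the first table. Egln1, the prolyl hydroxylase PHD2 that marks HIF-1 alpha for degradation, stood at 67.5 and 66.1 FPKM in WT against 81.96 and 66.8 FPKM in MSC KO 1 and MSC KO 2. Egln3 (PHD3), itself a known HIF target, had 111 and 117 FPKM in WT against 145 and 109 FPKM in MSC KO 1 and MSC KO 2, so MSC KO 1 was above and MSC KO 2 below the WT pair. Vhl, the recognition subunit of the ubiquitin ligase, had 16.2 and 17.9 FPKM in WT against 21.5 and 18.3 FPKM in MSC KO 1 and MSC KO 2, with the second MSC KO-labelled library close to WT 2. Of the 4 genes only Hif1a had an unadjusted p under 0.05.

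Among the other hypoxia-response genes, P4ha2 had the largest difference, of similar size in both tables. P4ha2, a subunit of the collagen prolyl hydroxylase (chr11:53914425-53945169), was at 7.81 and 7.64 FPKM in WT 1 and WT 2, and 14.7 and 15.9 FPKM in the libraries labelled MSC KO 1 and MSC KO 2. The 2 labels did not overlap, and the folds were 1.89 and 2.09 in the 2 tables. The difference was 0.90 ± 0.095 (log2, SE), with a limma adjusted p of 0.12. P4ha1, its paralog, stood at 38.4 and 40.2 FPKM in WT against 33.1 and 36.7 FPKM in MSC KO 1 and MSC KO 2, lower in both tables. Ankrd37 (chr8:47082261-47085204), a small ankyrin-repeat gene known to be induced by HIF-1, was at 32.4 and 28.3 FPKM in WT 1 and WT 2, and 22.4 and 19.5 FPKM in the libraries labelled MSC KO 1 and MSC KO 2. It was lower by the same fold in either table, 0.693 and 0.691, with a difference of -0.51 ± 0.09 and a limma adjusted p of 0.152. Ndrg1, a stress-response gene (chr15:66760879-66801203), was at 51.3 and 52.9 FPKM in WT 1 and WT 2, and 78.8 and 67.2 FPKM in the libraries labelled MSC KO 1 and MSC KO 2, 1.54-fold and 1.27-fold above WT, a difference of 0.48 ± 0.12 (limma adjusted p 0.19).

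Ero1l and Higd1a stood highest in MSC KO 1. Ero1l, an oxidase of disulfide formation in the endoplasmic reticulum, was at 105 and 109 FPKM in WT 1 and WT 2, and 161 and 114 FPKM in the libraries labelled MSC KO 1 and MSC KO 2. Higd1a, a mitochondrial protein of the hypoxia response, was at 707 and 694 FPKM in WT 1 and WT 2, and 1018 and 675 FPKM in the libraries labelled MSC KO 1 and MSC KO 2, and the MSC KO 2 value was the lowest of the 4. Bnip3l, a mitophagy receptor gene, stood at 63.6 and 64.95 FPKM in WT against 80.5 and 70.4 FPKM in MSC KO 1 and MSC KO 2, with no overlap. Its relative Bnip3 stood at 136 and 137 FPKM in WT against 158 and 132 FPKM in MSC KO 1 and MSC KO 2, above WT in one and below it in the other. Mxi1, a MAX-binding antagonist of MYC, ranged from 15.4 to 17.4 FPKM and was higher in both tables. Kdm3a, a histone H3 lysine demethylase, ranged from 13.7 to 16.4 FPKM and was lower in both.

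The MSC KO-labelled pair differed from each other more than the WT pair did. Over the 39 genes the SD of WT 1 minus WT 2 was 0.058 on the log2(FPKM + 1) scale, and that of MSC KO 1 minus MSC KO 2 was 0.217. The median absolute difference was 0.035 in the WT pair and 0.19 in the other, against 0.067 and 0.17 over all tested genes. MSC KO 1 was above MSC KO 2 by a median of 0.17, against 0.01 for all genes, while WT 1 minus WT 2 had a median of -0.03 in the set and over all genes. Some related lists had a similar median for MSC KO 1 minus MSC KO 2. It was 0.16 for pentose phosphate and serine synthesis and for the MYC and mTORC1 pathway. The median was 0.14 for other HIF pathway components and 0.13 for respiratory chain subunits. Other related lists lay nearer the value of all genes. Their medians were -0.02 for other glycolysis and pyruvate genes, and 0.02 for other hypoxia-induced genes and for the citric acid cycle. Relative to WT, none of the genes was at least 1.5-fold larger in the first table than in the second table (5.25% of all genes) or the reverse (5.41%). At 1.25-fold, a setting chosen after seeing the data, 9 were larger in the first table (Egln3, Ero1l, Hif1a, Higd1a, Hk1, Hk2, Slc2a1, Slc2a3 and Vhl; 23.1% of the set against 14.9%), and none the reverse (11.9%). The signed difference from WT was larger in the first table by any amount for 30 of 39 genes (76.9% against 56.9%), 28 with each library rescaled (against 53.5%) and 26 after quantile normalization (against 51.9%). The same held for 85.7% of the respiratory chain subunits and 78.6% of the pentose phosphate and serine synthesis genes. It held for 70.0% of other HIF pathway components, 68.2% of citric acid cycle genes and 66.7% of MYC and mTORC1 pathway genes. For other hypoxia-induced genes and other glycolysis and pyruvate genes the shares were 60.7% and 45.0%. By quantile the set was at 66.7% and all genes at 51.9%. The respiratory chain then fell to 51.4% and pentose phosphate and serine synthesis to 64.3%. Citric acid cycle and other hypoxia-induced genes fell just below all genes, and the 3 remaining lists did not change. The likeness to the respiratory chain and citric acid cycle thus depended on the scaling. Of the 39 genes, P4ha2, Pdha1, Pfkm and Ldhb were among those with the larger value in the second table. With 1 library of each label in a table, the difference between the tables has no replicate of its own.

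**Figure D3:**
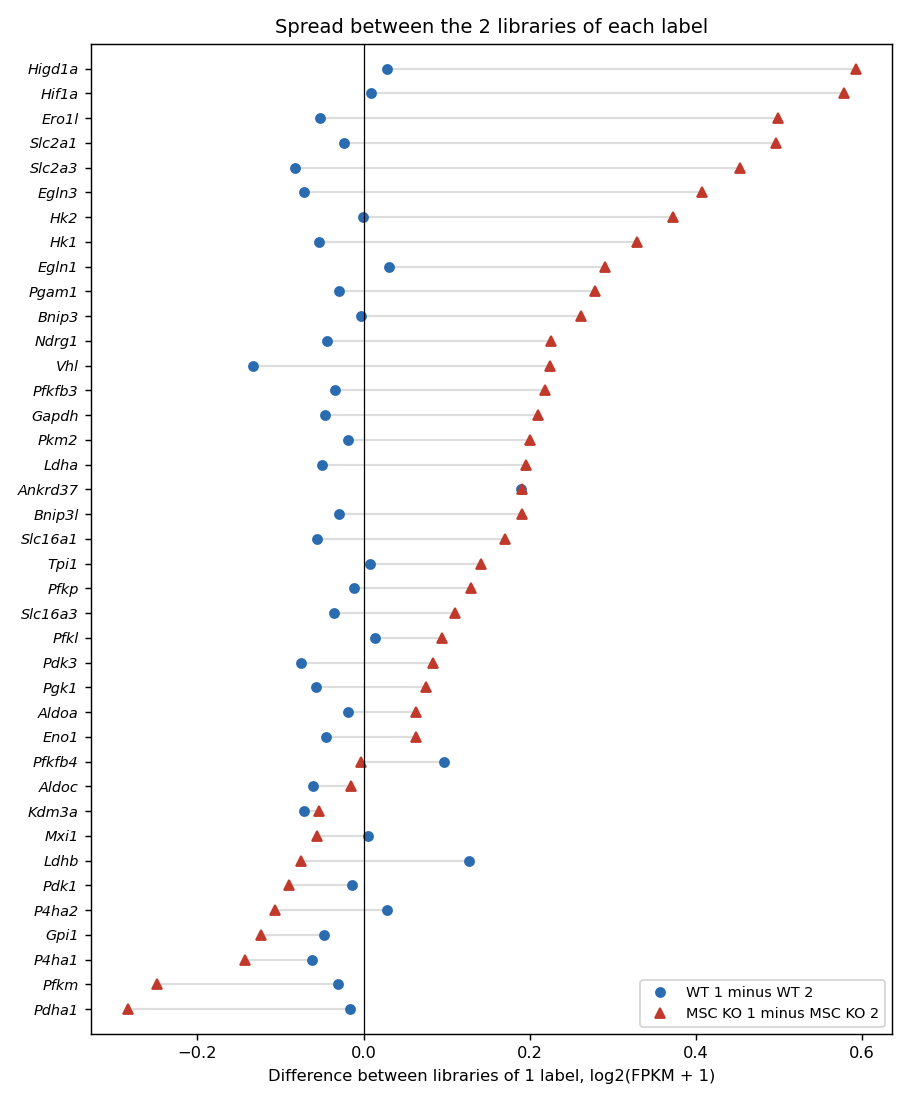
Difference between the 2 WT libraries (circles) and between the 2 MSC KO-labelled libraries (triangles) for each of the 39 genes on the log2(FPKM + 1) scale. The triangles reach 0.59 for Higd1a and the circles no more than 0.19 in size (Ankrd37), and most triangles lie to the right of 0.

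A share within a paralog pair is free of the scale of a library, and FPKM allows levels of different genes to be compared because it divides by length. Slc2a3 made up 28.3% and 29.1% of the Slc2a1 and Slc2a3 sum in WT 1 and WT 2 and 42.5% and 43.2% in MSC KO 1 and MSC KO 2. Hk2 made up 23.9% and 23.3% of the Hk1 and Hk2 sum in WT and 31.7% and 30.96% in the MSC KO-labelled libraries. P4ha2 made up 16.9% and 15.97% of P4ha1 plus P4ha2 in WT and 30.8% and 30.3% in the others. In each of these 3 pairs the MSC KO-labelled libraries lay above both WT libraries and within 1 percentage point of each other, although Hk2 and Slc2a3 themselves differed between them. The other 8 shares showed smaller gaps: Ldhb, for example, made up 1.53% and 1.35% of the lactate dehydrogenase sum in WT and 1.48% and 1.78% in the others. Pfkp held about 60.5% to 62.8% of the phosphofructokinase sum in all 4. No test was run on the shares.

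**Figure D4:**
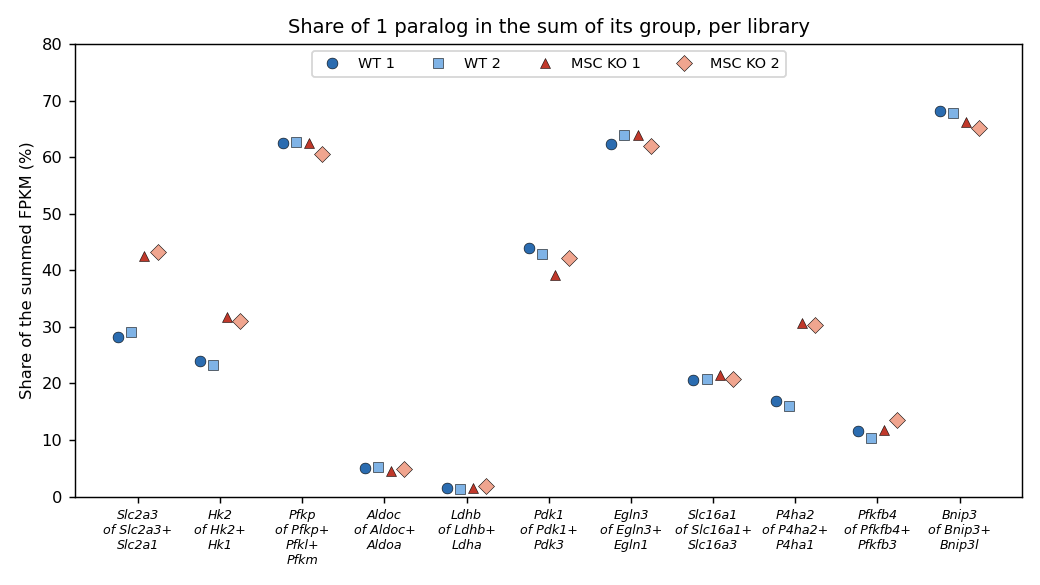
Share of 1 paralog in the summed FPKM of its group, in percent, for 11 groups in the 4 libraries; each point is 1 library. The shares of Slc2a3, Hk2 and P4ha2 are higher in both MSC KO-labelled libraries (42.5% and 43.2% against 28.3% and 29.1% for Slc2a3), while those of the other groups lie close together.

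Genes outside the 40 were read from lists of related pathways. Of 20 tested genes of other glycolysis and pyruvate steps, 4 had an unadjusted p under 0.05 and were higher (20%, against 9.2% of all genes), and 3 were lower (15%, against 11.2%); none passed the adjusted test. Eno2, the neuronal enolase, was at 4.11 and 4.17 FPKM in WT 1 and WT 2, and 20.5 and 56.6 FPKM in the libraries labelled MSC KO 1 and MSC KO 2. Eno3, the muscle enolase, was at 81.4 and 80.05 FPKM in WT 1 and WT 2, and 21.8 and 47.6 FPKM in the libraries labelled MSC KO 1 and MSC KO 2, and the 2 labels did not overlap for either gene (limma adjusted p 0.139 and 0.191). Bsg, the chaperone of the lactate transporters, had 424 and 430.4 FPKM in WT against 647 and 555 FPKM in MSC KO 1 and MSC KO 2. Gpd2, of the glycerol phosphate shuttle, had 4.37 and 4.64 FPKM in WT against 8.13 and 7.15 FPKM in MSC KO 1 and MSC KO 2. Of 10 other HIF pathway components, 1 was lower at an unadjusted p under 0.05 (10%, against 11.2%): Cited2, a competitor of HIF for its coactivators, at 23.3 and 22.3 FPKM in WT against 16.96 and 14.2 FPKM in MSC KO 1 and MSC KO 2. Arnt, the HIF partner, had 14.8 and 14.8 FPKM in WT against 12.7 and 13.9 FPKM in MSC KO 1 and MSC KO 2.

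Other hypoxia-induced genes went in both directions. Of 28 tested, 10 were higher (35.7%) and 4 lower (14.3%) at an unadjusted p under 0.05, against 9.2% and 11.2% of all genes, with a median difference of 0.19 against -0.02 for all genes and of 0.24 and 0.15 in the first and second table. Bhlhe40, a basic helix-loop-helix repressor, was at 129 and 134 FPKM in WT 1 and WT 2, and 224 and 234 FPKM in the libraries labelled MSC KO 1 and MSC KO 2. Rbpj, the transcription factor of Notch signalling, was at 122 and 131 FPKM in WT 1 and WT 2, and 213 and 242 FPKM in the libraries labelled MSC KO 1 and MSC KO 2. Rora, a nuclear receptor of the ROR family, was at 1.62 and 1.93 FPKM in WT 1 and WT 2, and 3.64 and 5.51 FPKM in the libraries labelled MSC KO 1 and MSC KO 2. All 3 were higher in both tables. Cxcr4, the receptor for CXCL12, had 29.1 and 27.9 FPKM in WT against 15.98 and 13.2 FPKM in MSC KO 1 and MSC KO 2, the reverse direction. None of the 28 passed the adjusted test.

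In lists of adjoining metabolism, lower and higher in both tables were 7 and 1 of 14 pentose phosphate and serine synthesis genes, 8 and 3 of 22 citric acid cycle genes, 17 and 4 of 35 respiratory chain subunits, and 10 and 3 of 21 MYC and mTORC1 pathway genes, against 37.5% and 31.2% of all genes. Higher in the first table and lower in the second were 6, 8, 13 and 6 genes of these lists. At an unadjusted p under 0.05, 2 genes of the first list were lower (14.3%, against 11.2% of all genes) and none higher. Phgdh, the entry enzyme of serine synthesis, had 322 and 322 FPKM in WT against 223 and 233 FPKM in MSC KO 1 and MSC KO 2. In the citric acid cycle 2 were lower (9.09%), among them Suclg2 (a subunit of succinyl-CoA ligase) with 48.7 and 51.2 FPKM in WT against 33.4 and 40.6 FPKM in MSC KO 1 and MSC KO 2. In the respiratory chain 1 was lower (2.86%), Ndufa3, with 487 and 518 FPKM in WT against 420.3 and 384 FPKM in MSC KO 1 and MSC KO 2. In the last list 2 were lower (9.52%), Max and Mxd1, partners in the MYC network. Max had 74.2 and 73.3 FPKM in WT against 48.8 and 52.9 FPKM in MSC KO 1 and MSC KO 2. Mxd1 had 18.9 and 20.01 FPKM in WT against 12.1 and 9.98 FPKM in MSC KO 1 and MSC KO 2. The median differences of these 4 lists were -0.07, -0.04, -0.07 and -0.06, against -0.02 over all genes, and none of their genes passed the adjusted test.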

How the data were processed

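The authors deposited 2 gene tables with 1 WT and 1 MSC KO-labelled library each, in FPKM, with their own p-value and q-value for that pair. The unit is read from the tables' layout. TopHat and the mm9 build are named in the submitters' processing notes, and other steps, including how the 2 tables were scaled to each other, are not stated in the labels or headers. Rows without a symbol held 49.9% to 54.1% of summed FPKM and were left out. Of symbols with several rows the row with the highest mean was kept, 3 symbols whose loci did not overlap and 6 with a failed estimate were dropped, and genes with a mean under 1 FPKM were not tested. limma 3.58.1 in R 4.3.3 compared the labels on log2(FPKM + 1), with the table as a block, a trended prior and Benjamini-Hochberg adjustment over all 10603 genes; fold changes on this scale understate those of low genes. The labels do not say that libraries came from separate animals or cultures, so p-values measure only the spread between these libraries. Counting noise was checked from estimated fragments. WT 1 and WT 2 differed beyond 95% counting limits for 30.6% of genes and were kept as 2 libraries. MSC KO 1 and MSC KO 2 did so for 68.0% of genes. Of the 39 genes of the set, 13 lay beyond the limits in the WT pair and 34 in the MSC KO-labelled pair. Named genes were those with the largest mean difference, the largest difference between tables, and at least 2 of each role, with up to 4 of each related list. The genes and lists were chosen with earlier results of these data known. Alternatives were other scalings, pseudocounts and filters, no block, no trend, and each library left out; Python 3.11.15 and pandas 2.3.3 were used for the rest.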

Additional observations from a re-analysis of the deposited data

How the results depend on the processing

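Over all genes, where 1 was called, limma called 153 with no replicate block, 0 with a pseudocount of 5, with no filter on low values, after quantile normalization and with the prior without trend, 3 with a filter of 5 FPKM, 7 with libraries scaled to 1 common sum, and, in a setting chosen after seeing the data, 26 with small RNA symbols left out. Leaving out 1 library gave 0 to 2672 genes, the lone library being assumed to vary like the others. Of the 39 genes, where 0 were called, 1 (P4ha2) was called with no replicate block and 0 to 18 with 1 library left out. The table numbers are shared by the labels, but no label says that they mark a batch, and the correlation of the WT and MSC KO-labelled differences between tables was 0.0589 across genes. Settings chosen after seeing the data gave 5 genes 1.25-fold higher in both tables (7.6% of all genes) and 0 genes 2-fold higher (1.32%), where 3 were 1.5-fold higher, and 1 gene (Ankrd37) 1.25-fold lower (7.77% of all genes) where 0 were 1.5-fold lower. Compared between tables, 9 were 1.25-fold larger in the first (14.9% of all genes), and 1 (Higd1a) was 1.5-fold apart with no WT subtracted (4.25%), where 0 were 1.5-fold apart. The median difference of the genes was between -0.02 and 0.16 with 1 library left out. Without MSC KO 1 the difference turned to -0.066 for Egln3, -0.054 for Higd1a and -0.22 for Slc2a1; with 1 library left out these genes reached 0.34, 0.54 and 0.27. Slc2a1 was at -0.016 with libraries rescaled. Of 240 alternative values for 16 named genes, 4 reversed direction. Among fits that kept 2 libraries of each label, only P4ha2 crossed the threshold, with no replicate block. Settings with no block, no trend, other filters or small RNA symbols left out gave the same difference for these genes. Those settings could move only the adjusted p and could not reverse a direction. The causes were not tested. Counting error was at most 6.63% for the 39 genes, so depth limited few of these values.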
